A study of Mus musculus with 30 samples.

Results

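The unfolded protein response and the chaperones of the endoplasmic reticulum (ER) were followed through 33 genes in the forebrain of mice given clozapine, haloperidol or no drug. The members are textbook genes of this response, matched by gene symbol to 72 probe sets of the array, where the platform lists Ero1l under its newer symbol Ero1a. They are 33 of 12393 genes that have a probe set with a single gene symbol. Of the members, 14 were placed in the Atf6 branch, 13 in the Xbp1 branch and 6 in the Perk branch, by the sensor they are best known to follow. Many of them answer to more than 1 sensor, so the branches are a way to order the list. Where a gene had several probe sets, the one with the highest mean over all arrays stood for it. Testing needed a mean of 4 or more on the log2 scale, which 31 of the 33 members reached.

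Clozapine, an atypical antipsychotic, was given at 12 mg/kg/day and haloperidol, a typical antipsychotic, at 1.6 mg/kg/day, both in the drinking water for 12 weeks. Control mice drank water without a drug over the same time. Each group had 10 male C57BL mice, housed singly, with 1 Affymetrix MOE430A array per mouse and no pooling of RNA. The doses differ because each was set at the top of its clinical range, so the drugs were not compared at a matched dose. The labels give an age of 4 weeks, which cannot be the age after 12 weeks of treatment, and they name both the right and the left hemisphere. The protocol of the haloperidol mice names clozapine beside the haloperidol dose. In whole forebrain tissue, fewer cells of a type and less RNA per cell cannot be told apart.

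When proteins misfold in the ER, 3 membrane sensors respond. Atf6 is cut to release a transcription factor, Ern1 (IRE1 alpha) splices the Xbp1 mRNA so that it encodes an active factor, and Eif2ak3 (PERK) phosphorylates eIF2 alpha, which slows translation in general and favours that of Atf4. Hspa5 (BiP), the main Hsp70 chaperone of the ER, holds the sensors inactive and is itself a target of Atf6 and Xbp1. In neurons the ER folds receptors, channels and secreted peptides, and the response is known from work on neurodegeneration and on secretory cells. The array measures mRNA with probes near the 3′ end, so splicing of Xbp1, cutting of Atf6 and phosphorylation of eIF2 alpha were not measured.

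The genes are tied together by short DNA elements near their starts. The ER stress response element (ERSE), bound by Atf6 and Xbp1 together with a CCAAT-binding factor, was searched as CCAAT, any 9 bases and CCACG. Its shorter form, ERSE-II, was searched as ATTGG, any base and CCACG, both of them on either strand. The window ran from 250 bases before to 50 bases after the RefSeq gene start, and 29 of the 33 members had such a window. Atf6, Hyou1, Manf and Derl1 had none and were not searched. An exact ERSE stood in 8 of the 29 windows (27.6%), against 37 of 27025 windows of all genes (0.137%). An exact ERSE-II stood in 2 of 29 members (6.9%), Herpud1 and Dnajb11, against 0.0444% of all genes. The ERSE was first described in chaperone promoters of this list, so its presence here is not independent of the choice of genes. The 250 bases before the Xbp1 gene start held neither CCAAT nor CCACG on either strand, which says only that these letters are not in that stretch. The 50 bases after the start were not searched for them alone. The unfolded protein response element core TGACGTGG and the amino acid response element TGATGCAAT, a site of the Atf4 and CHOP type, were in 0 of 29 windows, against 0.714% and 0.222% of all genes. At such shares most sets of 29 windows would hold none, so the 0 does not set the members apart.

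The sequences below show the elements of Hspa5, Calr, Hsp90b1, Canx and Herpud1. They are printed from RefSeq (GRCm38.p6), 5′ to 3′ on the strand of the gene, with the element in capitals. Positions count bases from the gene start, which is 0. For Hspa5 (chr2:34771870-34772089, + strand, -220 to -1), capitals mark each CCAAT and CCACG on either strand, and the ERSE runs from -65 to -47. The Calr stretch is chr8:84847063-84847105 (- strand, element from -162 to -144, reverse orientation). Hsp90b1 holds an element at chr10:86705626-86705668 (- strand, -212 to -194) and another, in reverse, at chr10:86705521-86705563 (- strand, -107 to -89). Canx has its element at chr11:50325788-50325830 (- strand, -145 to -127), and Herpud1 its ERSE-II at chr8:94386365-94386399 (+ strand, -52 to -42).
Hspa5: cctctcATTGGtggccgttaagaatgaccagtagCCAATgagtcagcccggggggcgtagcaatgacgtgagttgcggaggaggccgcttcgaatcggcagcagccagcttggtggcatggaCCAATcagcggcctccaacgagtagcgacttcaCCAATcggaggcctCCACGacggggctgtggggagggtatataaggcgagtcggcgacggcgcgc
Calr: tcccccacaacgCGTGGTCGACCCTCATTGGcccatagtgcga
Hsp90b1, distal: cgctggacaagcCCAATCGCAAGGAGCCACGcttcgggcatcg
Hsp90b1, proximal: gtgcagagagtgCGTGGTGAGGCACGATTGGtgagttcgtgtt
Canx: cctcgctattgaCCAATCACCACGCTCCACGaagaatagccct
Herpud1: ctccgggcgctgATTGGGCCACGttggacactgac

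**Figure D1:**
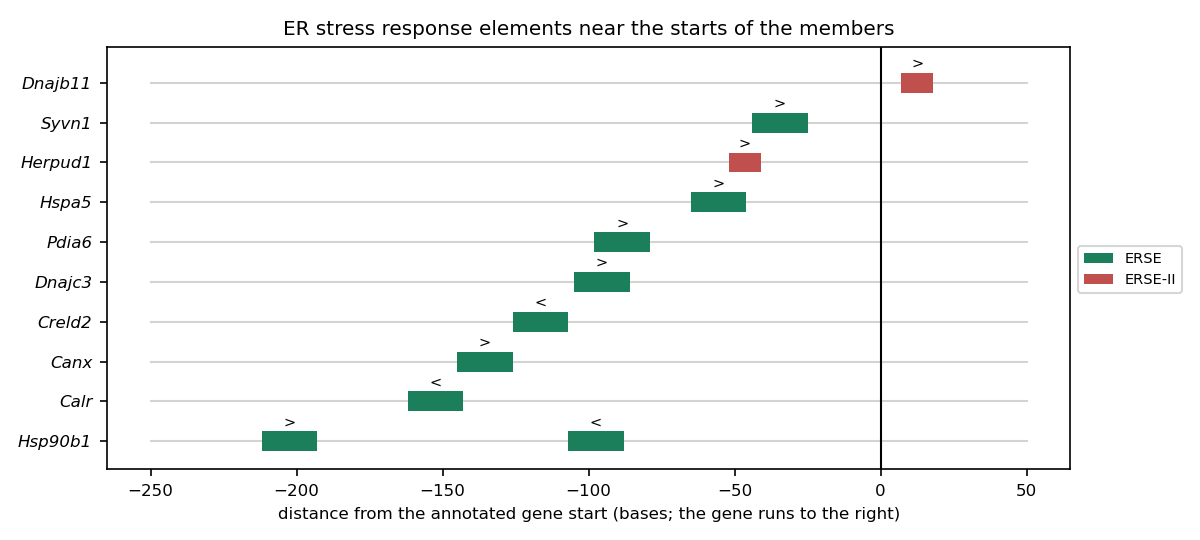
Exact ERSE (green) and ERSE-II (red) matches in the 10 members that hold one, by distance in bases from the annotated gene start, with the gene running to the right. Arrowheads give the orientation. Hsp90b1 holds 2 elements, and the match of Dnajb11 lies after the gene start.

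For the 10 members with an exact element, the median log2 difference was -0.05 for clozapine against control. It was 0.03 for haloperidol against control and -0.04 for clozapine against haloperidol. For the 17 tested members whose windows held no element these medians were 0.04, 0.00 and 0.00. No test was made of these lists, so the medians do not decide whether they differ.

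Arrays differed for reasons that the groups do not give, and this touched the members. Array medians ran from 4.63 to 4.88 on the log2 scale. Haloperidol 2, haloperidol 7 and control 1 correlated with their own groups at a mean of 0.84 to 0.86, and the others at 0.906 to 0.951. By average linkage on the correlations between arrays over all probe sets tested, 26 arrays fell into 3 clusters and 4 arrays stayed alone. Cluster A held 3 clozapine, 5 haloperidol and 3 control arrays. Cluster B held 1 clozapine, 3 haloperidol and 4 control arrays, and cluster C held 5 clozapine, 0 haloperidol and 2 control arrays. The 3′ minus 5′ signal of Gapdh and Actb, a measure of RNA integrity, had medians of 0.88 in clozapine, 0.56 in haloperidol and 0.67 in control arrays. Its ranges were 0.62 to 1.24 in clozapine, 0.47 to 2.45 in haloperidol and 0.47 to 4.09 in control arrays. Clusters were thus filled unequally by the drugs. Among the arrays numbered 7 to 10, clozapine 8, 9 and 10 lay in C, while clozapine 7 and haloperidol 7 stayed alone. The other haloperidol arrays and all control arrays of that set lay in B. Clozapine and array cluster therefore cannot be told apart in the values given below for that set. Differences inside clusters are given below as values with no test, over 3 clozapine, 5 haloperidol and 3 control arrays in A and 1, 3 and 4 in B.

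No member was called in any comparison at an adjusted p under 0.05 (limma, Benjamini-Hochberg over 12944 probe sets), and neither was any of the 12944 probe sets (0% in each comparison). At an unadjusted p under 0.05, clozapine against control had 0 of 31 members, beside 4.35% of all probe sets. Haloperidol against control had 1 member, beside 2.3%, and clozapine against haloperidol had 1, beside 3.14%. In both comparisons that member was Xbp1. Over the alternative settings these counts of members ran from 0 to 8 for clozapine against control, from 0 to 4 for haloperidol against control and from 1 to 10 between the drugs. The highest count was each time that with array weights, where 30.9%, 23.9% and 19.1% of all probe sets passed in the same order of comparisons. The members' log2 differences ran from -0.37 to 0.29 for clozapine against control, from -0.18 to 0.30 for haloperidol against control and from -0.45 to 0.39 for clozapine against haloperidol. The half-width of a member's unadjusted 95% confidence interval had a median of 0.37, or 1.29-fold. Differences below a member's half-width were not resolved. A call after adjustment over all probe sets would have needed a larger difference at the same spread, so this size is not a detection limit.

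Directions were mixed. Against control, 18 members were higher and 13 lower with clozapine, with a median difference of 0.04, beside 0.02 over all probe sets, of which 55.3% were higher. With haloperidol 19 were higher and 12 lower, with a median of 0.01, beside -0.03 over all probe sets, of which 43.5% were higher. Between the drugs, 15 were higher and 16 lower with clozapine, with a median of 0.00, beside 0.05 over all probe sets, of which 60.7% were higher. By branch, the Atf6 branch had medians of -0.03 with clozapine and 0.09 with haloperidol against control, and of -0.06 between the drugs. The Xbp1 branch had medians of 0.04, 0.00 and 0.00 in the same order of comparisons. The Perk branch had 0.12, -0.05 and 0.18, and all 5 of its tested members were higher with clozapine than in controls, none past an unadjusted p of 0.05. The comparisons share arrays, so these values are not independent of each other.

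**Figure D2:**
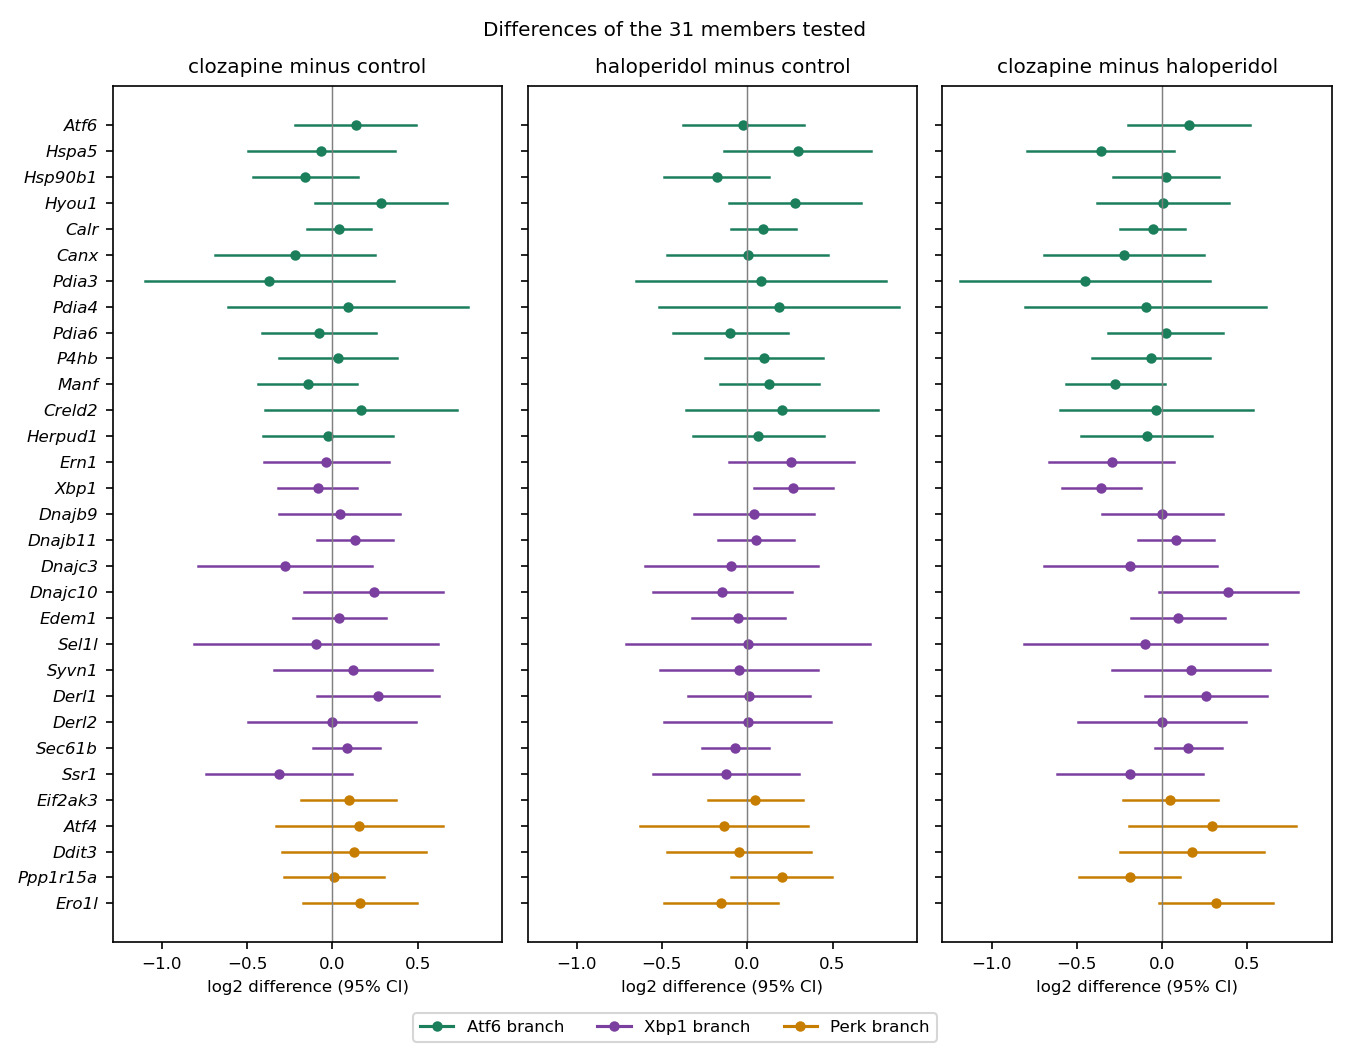
Log2 difference of each of the 31 members tested (point) with its 95% confidence interval (line), in 3 panels by comparison, coloured by branch. Of the 93 intervals, those of Xbp1 for haloperidol minus control and for clozapine minus haloperidol do not cross 0.

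Among the sensors' partners in the Atf6 branch, Hspa5 had log2 values from 10.88 to 11.91 (median 11.27) on clozapine arrays. Its values ran from 10.75 to 12.48 (median 11.75) on haloperidol arrays and from 10.41 to 12.19 (median 11.29) on control arrays. The groups overlapped, and the 2 lowest values over all arrays were those of control 1 and haloperidol 2. The difference was -0.07 (SE 0.21, p = 0.759) for clozapine against control and 0.30 (SE 0.21, p = 0.173) for haloperidol against control. Between the drugs it was -0.36 (SE 0.21, 95% CI -0.79 to 0.07, p = 0.0985, adjusted p = 0.965), and 8 of 10 clozapine arrays lay below the haloperidol mean. With the array cluster as a block, where arrays that stood alone carry no weight, Hspa5 kept its difference of -0.36, with an unadjusted p of 0.0197 and an adjusted p of 0.789. Within clusters the drugs differed by -0.36 in A and by -0.25 in B, where clozapine has 1 array. The arrays numbered 1 to 6 gave -0.53 and those numbered 7 to 10 gave -0.10.

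Atf6, the sensor of this branch, ran from 7.73 to 8.60 (median 8.25) on clozapine arrays. On haloperidol arrays it ran from 7.20 to 8.70 (median 7.97) and on control arrays from 6.97 to 8.73 (median 8.14). The single lowest array was control 5, and the groups overlapped over most of their range. The differences were 0.14 (SE 0.17) for clozapine against control, -0.02 (SE 0.17) for haloperidol against control and 0.16 (SE 0.17) between the drugs. The sign of the haloperidol difference turned under 6 of 14 alternatives, with values up to 0.12 under the cluster block. Haloperidol arrays differed from control arrays by 0.37 inside cluster A, which holds control 5, and by 0.01 inside B.

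Hyou1, a nucleotide exchange factor and chaperone that works with BiP, had the smallest p of the branch in both comparisons with control. It ran from 7.20 to 8.37 (median 7.58) on clozapine arrays, from 6.91 to 8.78 (median 7.40) on haloperidol arrays and from 7.06 to 7.76 (median 7.27) on control arrays. Its highest values were on drug arrays, yet the groups overlapped. The differences were 0.29 (SE 0.19, p = 0.14) with clozapine and 0.28 (SE 0.19, p = 0.148) with haloperidol, and 0.01 (SE 0.19) between the drugs. Its second tested probe set gave 0.26 and 0.21 against control. Inside cluster A the differences from control were 0.42 with clozapine and 0.16 with haloperidol, and inside cluster B 0.06 and 0.08. With the cluster block they were 0.26 with clozapine and 0.10 with haloperidol.

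Manf, a neurotrophic factor secreted under ER stress, had the smallest p of the branch between the drugs. It ran from 8.20 to 8.998 (median 8.56) on clozapine arrays and from 8.44 to 9.73 (median 8.77) on haloperidol arrays, beside 8.29 to 9.29 (median 8.63) on control arrays. The highest value was that of haloperidol 2, and 9 of 10 clozapine arrays lay below the haloperidol mean. The difference between the drugs was -0.27 (SE 0.14, p = 0.0641, adjusted p = 0.965). With the cluster block it was -0.05, and within clusters A and B it was -0.05 and -0.04.

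The other tested members of the branch were chaperones, disulfide isomerases and secreted or degradation proteins, and none reached an unadjusted p of 0.05. Calr, the soluble lectin chaperone, had one of the smallest spreads of the list, with means of 12.01 ± 0.14 in clozapine, 12.07 ± 0.19 in haloperidol and 11.97 ± 0.19 in control arrays (SD, n = 10 each). Its membrane-bound partner Canx averaged 10.39 ± 0.44, 10.61 ± 0.65 and 10.61 ± 0.48 in the same groups. Hsp90b1 (Grp94), the Hsp90 chaperone of the ER, had differences from control of -0.16 (SE 0.15) with clozapine and -0.18 (SE 0.15) with haloperidol. Its highest value of all arrays was that of control 1 (11.22), which both comparisons share, and its lowest that of haloperidol 2 (9.39). Pdia3, the disulfide isomerase that works with calreticulin and calnexin, had the most negative value of any member with clozapine against control, -0.37 (SE 0.36). Against haloperidol the Pdia3 value was -0.45 (SE 0.36), again the most negative, with an interval from -1.18 to 0.28. Inside clusters the Pdia3 difference between the drugs was -0.02 in A and -0.30 in B. The arrays numbered 1 to 6 gave -0.07 between the drugs and 0.23 for clozapine against control, and those numbered 7 to 10 gave -1.02 and -1.26. For Pdia4, Pdia6, P4hb, Creld2 and Herpud1 the differences lay between -0.10 and 0.20 in the 3 comparisons. Sdf2l1, a co-chaperone of the branch, had a mean under 4 and was not tested. Its values were 1.92 to 3.93 on clozapine, 2.29 to 3.82 on haloperidol and 1.89 to 5.39 on control arrays.

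In the Xbp1 branch, Xbp1 itself gave the smallest p of all members, among the probe sets that stood for their genes. Its values ran from 9.73 to 10.50 (median 9.99) on clozapine arrays, from 9.95 to 10.79 (median 10.43) on haloperidol arrays and from 9.79 to 10.63 (median 10.07) on control arrays. Of the haloperidol arrays, 9 of 10 lay above the control mean, and of the clozapine arrays 9 of 10 lay below the haloperidol mean, though all 3 groups overlapped. The difference between clozapine and haloperidol was -0.36 (SE 0.11, 95% CI -0.59 to -0.12, p = 0.00372), a ratio of 0.78, with an adjusted p of 0.965. Haloperidol against control gave 0.27 (SE 0.11, 95% CI 0.04 to 0.50, p = 0.0236, adjusted p = 0.9999), and clozapine against control -0.09 (SE 0.11, p = 0.453). Of its variance over the 30 arrays, 32.0% lay between the groups, beside a median of 5.02% for the members and 4.74% for all probe sets tested. This share and the small p of Xbp1 rest on the same values.

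Xbp1 also moved with the array clusters, which held 46.2% of its variance over the 26 arrays in clusters. The median of that share was 33.9% for the members and 40.8% for all probe sets tested. The Xbp1 medians were 10.40 in A, 10.03 in B and 9.96 in C. With the cluster as a block the difference between the drugs was -0.22 (SE 0.11, p = 0.0611) and that of haloperidol against control was 0.15 (SE 0.10, p = 0.154). Inside cluster A the drugs differed by -0.07, and inside cluster B by -0.38 with 1 clozapine array. Haloperidol arrays differed from control arrays by 0.14 inside A and by 0.26 inside B. The arrays numbered 1 to 6 gave -0.36 and those numbered 7 to 10 gave -0.34. Without the 3 arrays that stood apart the drugs differed by -0.30 (p = 0.013), and with the RNA integrity measure as a covariate by -0.36 (p = 0.0032). The part that the clusters play in the Xbp1 difference was not tested.

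**Figure D3:**
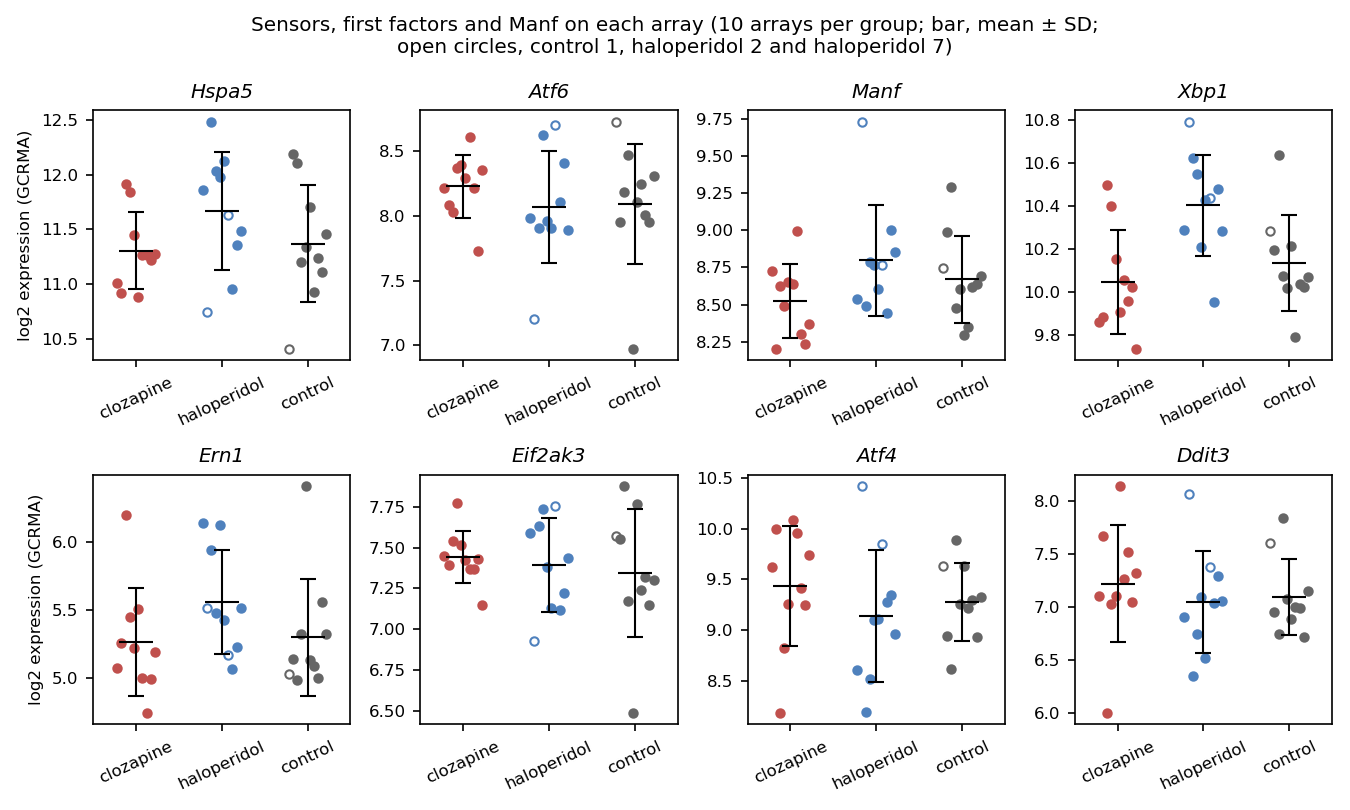
Log2 expression of Hspa5, Atf6, Manf, Xbp1, Ern1, Eif2ak3, Atf4 and Ddit3 on each array, in the order clozapine, haloperidol and control, with mean ± SD as bars (10 arrays each). Open circles are haloperidol 2, haloperidol 7 and control 1. For Xbp1, 9 of 10 clozapine arrays lie below the haloperidol mean, and all groups overlap for every gene shown.

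The 4 Xbp1 probe sets gave one direction between the drugs, with sizes that differed. Beside -0.36 for 1437223_s_at, the values were -0.60 (SE 0.29, p = 0.0475) for 1420886_a_at, -0.29 (SE 0.17, p = 0.0925) for 1420011_s_at and -0.07 (SE 0.15, p = 0.635) for 1420012_at. For haloperidol against control the other probe sets gave 0.03, 0.18 and 0.07. For 1420886_a_at the drugs differed by -0.23 in the arrays numbered 1 to 6 and by -1.16 in those numbered 7 to 10, and by 0.00 and 0.09 inside clusters A and B. The second Hspa5 probe set, 1427464_s_at, ran from 9.50 to 10.54 (median 9.85) on clozapine arrays and from 9.54 to 11.16 (median 10.38) on haloperidol arrays. Its difference between the drugs was -0.51 (SE 0.20, p = 0.0174, adjusted p = 0.965), in the direction of the first. Inside clusters A and B it was -0.54 and -0.08.

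**Figure D4:**
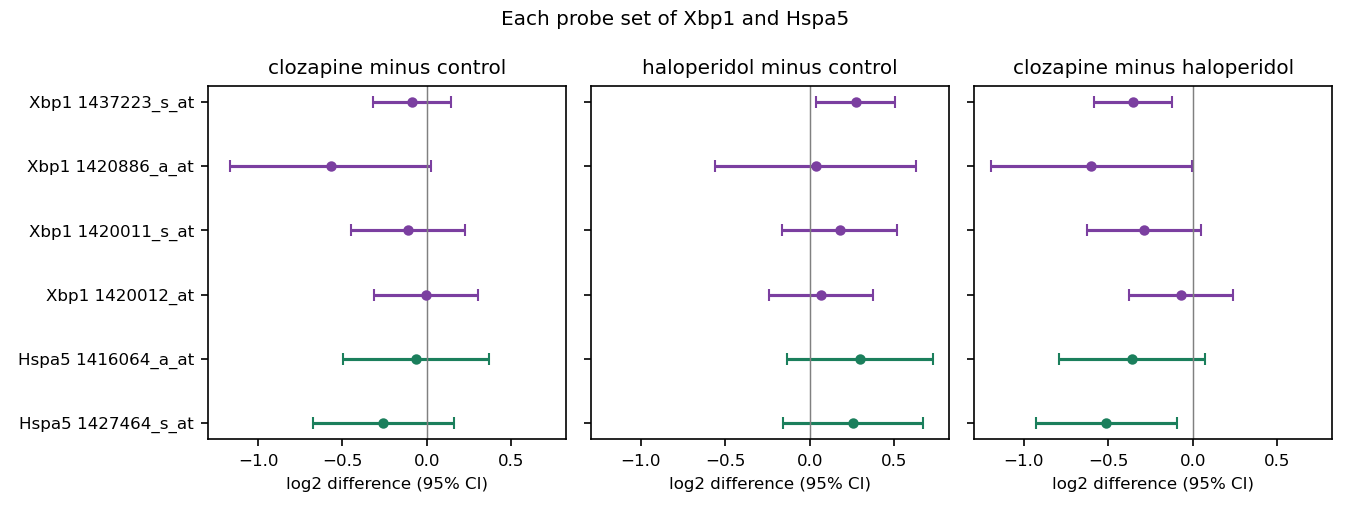
Log2 difference with 95% confidence interval for each tested probe set of Xbp1 (purple, 4) and Hspa5 (green, 2), in 3 panels by comparison. All 6 lie below 0 for clozapine minus haloperidol, from -0.60 to -0.07.

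Ern1, the kinase and endoribonuclease that splices Xbp1 mRNA, ran from 4.75 to 6.19 (median 5.21) on clozapine arrays and from 5.07 to 6.13 (median 5.49) on haloperidol arrays. Control arrays ran from 4.99 to 6.41 (median 5.14). Haloperidol arrays held more of the high values, but the highest single value was that of control 5. The difference was -0.29 (SE 0.18, p = 0.11) between the drugs, 0.26 (SE 0.18, p = 0.159) for haloperidol against control and -0.04 (SE 0.18) for clozapine against control. Inside clusters A and B the drugs differed by -0.20 and -0.19. Haloperidol arrays differed from control arrays by 0.31 inside A and 0.03 inside B.

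Derl1, a derlin of the complex that moves misfolded proteins out of the ER, had the smallest p of the branch for clozapine against control. It ran from 8.58 to 10.17 (median 8.996) on clozapine arrays, from 8.50 to 9.83 (median 8.89) on haloperidol arrays and from 8.61 to 9.40 (median 8.97) on control arrays. The medians differed little, and 3 clozapine arrays lay above every control array. Its difference from control with clozapine was 0.27 (SE 0.17, p = 0.135, adjusted p = 0.9997). The difference was -0.20 in the arrays numbered 1 to 6. It was 0.98 in those numbered 7 to 10, where clozapine and array cluster cannot be told apart. Inside clusters A, B and C it was -0.09, 0.02 and 0.27, and with the cluster block 0.08. The other tested Derl1 probe sets gave -0.06, -0.07 and 0.20, so the direction depended on the probe set. With arrays weighted by limma's array weights Derl1 was called for clozapine, at 0.41, in a fit that called 13.4% of all probe sets. Its adjusted p was under 0.05 only before rounding. In that fit control 7 to 10, all in cluster B, had weights from 3.44 to 4.86. The next highest weight was 1.69, for clozapine 10.

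The J-domain co-chaperones of BiP did not move as a block. Dnajc10 (ERdj5), a J-domain disulfide reductase, was higher with clozapine than with haloperidol by 0.39 (SE 0.20, p = 0.0622), and 9 of 10 clozapine arrays lay above the haloperidol mean. Inside clusters this Dnajc10 difference was 0.09 in A and 0.08 in B, and with the cluster block 0.16. Dnajc3 (p58IPK) had differences of -0.28 (SE 0.25) with clozapine and -0.09 (SE 0.25) with haloperidol against control. For Dnajb9 (ERdj4) and Dnajb11 (ERdj3) the 6 differences lay between 0.00 and 0.13. The degradation genes Edem1, Sel1l, Syvn1 and Derl2 lay between -0.10 and 0.17 in the 3 comparisons. Sec61b, a subunit of the Sec61 channel through which proteins enter the ER, was higher with clozapine than with haloperidol by 0.15 (SE 0.10, p = 0.122). Ssr1, a subunit of the translocon-associated complex, gave -0.31 (SE 0.21, p = 0.147) with clozapine and -0.12 (SE 0.21) with haloperidol against control. For clozapine the arrays numbered 1 to 6 gave 0.15 and those numbered 7 to 10 gave -1.01.

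In the Perk branch, Eif2ak3 ran from 7.15 to 7.78 (median 7.43) on clozapine arrays and from 6.93 to 7.75 (median 7.41) on haloperidol arrays. Control arrays ran from 6.49 to 7.88 (median 7.31). The 3 medians lay within 0.12 of each other, and the clozapine arrays were the least spread, with an SD of 0.16, beside 0.29 with haloperidol and 0.39 in controls. The differences were 0.10 (SE 0.14) with clozapine and 0.05 (SE 0.14) with haloperidol against control, and 0.05 (SE 0.14) between the drugs.

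Atf4, the factor whose translation PERK favours, ran from 8.18 to 10.09 (median 9.52) on clozapine arrays, from 8.19 to 10.42 (median 9.11) on haloperidol arrays and from 8.61 to 9.89 (median 9.28) on control arrays. Haloperidol 2 was the highest of all 30 arrays. The differences were 0.16 (SE 0.24) with clozapine and -0.14 (SE 0.24) with haloperidol against control, and 0.30 (SE 0.24, p = 0.229) between the drugs. The sign depended on the probe set for haloperidol against control, where the other tested Atf4 probe sets gave 0.01 and 0.33. Between the drugs Atf4 differed by 0.05 inside cluster A, by 0.43 inside B and by 0.12 with the cluster block. Its target Ddit3 (CHOP), a pro-apoptotic transcription factor, ran from 5.999 to 8.14 (median 7.18) on clozapine arrays, from 6.35 to 8.07 (median 7.04) on haloperidol arrays and from 6.71 to 7.84 (median 6.99) on control arrays. Ddit3 differed by 0.12 (SE 0.21) with clozapine and -0.05 (SE 0.21) with haloperidol against control, less than the spread within each group. Between the drugs it differed by 0.18 (SE 0.21), and by -0.01 and -0.02 inside clusters A and B.

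Ero1l, the oxidase that recharges disulfide isomerases, had the smallest p of the branch with clozapine against control and between the drugs. It ran from 7.88 to 8.74 (median 8.39) on clozapine arrays, from 7.52 to 9.13 (median 8.06) on haloperidol arrays and from 7.70 to 8.92 (median 8.16) on control arrays. Of the clozapine arrays, 9 of 10 lay above the haloperidol mean, while haloperidol 7 was the highest array of all. The differences were 0.16 (SE 0.16, p = 0.328) from control and 0.32 (SE 0.16, p = 0.0622) from haloperidol. The difference from control was -0.09 in the arrays numbered 1 to 6 and 0.54 in those numbered 7 to 10. The difference from haloperidol was 0.18 inside cluster A, 0.06 inside B and 0.11 with the cluster block (p = 0.31). Its other tested probe sets, 1419030_at and 1419029_at, gave -0.22 and -0.43 for clozapine against control, the opposite direction.

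Ppp1r15a (GADD34), the phosphatase subunit that reverses eIF2 alpha phosphorylation, had the smallest p of the branch with haloperidol. It ran from 4.47 to 5.31 (median 4.99) on clozapine arrays, from 4.44 to 6.18 (median 5.11) on haloperidol arrays and from 4.58 to 5.24 (median 4.98) on control arrays. The highest value was that of haloperidol 2. The difference from control was 0.20 (SE 0.14, p = 0.173) with haloperidol and 0.01 (SE 0.14) with clozapine. The haloperidol difference was 0.13 inside cluster A and 0.06 inside B, and 0.09 without haloperidol 2. Trib3, a pseudokinase induced by Atf4 and CHOP, had a mean under 4 and was not tested. Its highest-mean probe set lay between 2.90 and 3.19 on clozapine, between 2.69 and 3.72 on haloperidol and between 2.72 and 3.53 on control arrays.

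Between the drugs, the count of members depended on the 3 arrays that stood apart. Without haloperidol 2, haloperidol 7 and control 1, 8 of 31 members had an unadjusted p under 0.05, beside 17.8% of all probe sets, and none was called. Those lower with clozapine were Hspa5 (-0.48), Pdia3 (-0.82) and Xbp1 (-0.30). Those higher were Dnajc10 (0.37), Derl1 (0.36), Sec61b (0.23), Atf4 (0.54) and Ero1l (0.37), and the smallest adjusted p was 0.195, for Pdia3. Leaving out haloperidol 2 alone gave 5 members, beside 6.45% of all probe sets, and leaving out haloperidol 7 alone gave 4, beside 10.5%. With the cluster as a block the count was 2, beside 5.89%: Hspa5 at -0.36 and Dnajc3 at -0.43 (p = 0.0399). The naming of Pdia3, Dnajc10, Sec61b and Dnajc3 here followed a look at their values.

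Probe sets of a gene did not always give the same sign. Of the 15 members with several tested probe sets, 10 had a single direction with clozapine against control, 11 with haloperidol against control and 8 between the drugs. Among the probe sets that did not stand for their gene, 1417764_at of Ssr1 ran from 3.47 to 5.47 (median 4.61) on clozapine arrays and from 3.58 to 6.50 (median 5.94) on control arrays. All 10 clozapine arrays lay below the control mean, and the difference was -1.15 (SE 0.38, p = 0.00499, adjusted p = 0.9997), beside -0.31 for the Ssr1 probe set with the highest mean. The arrays numbered 1 to 6 gave -0.31 for 1417764_at. Those numbered 7 to 10, where clozapine and array cluster cannot be told apart, gave -2.42. For Dnajc10, 1452230_at ran from 5.67 to 6.69 (median 6.12) on clozapine arrays and from 4.82 to 6.15 (median 5.81) on haloperidol arrays, with 5.95 to 6.51 (median 6.17) on control arrays. This Dnajc10 probe set differed by 0.46 (SE 0.14, p = 0.00316) between the drugs and by -0.45 (SE 0.14, p = 0.00343) for haloperidol against control, and all 10 haloperidol arrays lay below the control mean. Between the drugs it differed by 0.38 inside cluster A and 0.52 inside B, and for haloperidol against control by -0.44 and -0.24. Haloperidol against control also had an unadjusted p under 0.05 for 1456170_x_at of Calr, at 0.24 (p = 0.0394), and for 1439258_at of Atf4, at 0.33 (p = 0.0477). None of the 59 tested probe sets of the members was called. The naming of these probe sets followed a look at their values.

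The array clusters held more of the members' variance than the drugs did. Over the 26 arrays in clusters, a median of 33.9% of a member's variance lay between clusters, beside 40.8% for all probe sets tested, so the members were not set apart by it. Over all 30 arrays, the median SD was 0.41 for the members and 0.43 for all probe sets. The clusters were found on all probe sets, the members included, so these values describe and test nothing.

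Single members differed widely in this. Pdia3 had 86.3% of its variance between clusters, with 10.73 to 11.26 in A, 10.06 to 10.51 in B and 9.09 to 10.08 in C. Sel1l, the adaptor of the Hrd1 ubiquitin ligase, had 79.0%, with 8.55 to 9.34 in B, above all arrays of A (6.78 to 7.70) and C (6.80 to 8.49). Hspa5 had 65.0%, with medians of 11.98 in A, 11.18 in B and 11.22 in C. Pdia4 was also high in A, with a median of 7.29, beside 5.84 in B and 6.01 in C. Atf4 and Ero1l of the Perk branch ran the other way: the medians of Atf4 were 8.82 in A, 9.29 in B and 9.74 in C, and those of Ero1l were 8.04, 8.21 and 8.66. Calr (0.335%), Creld2 (1.03%) and Hsp90b1 (2.98%) had almost none of their variance between clusters. Of the members named in this paragraph, those with an exact ERSE were Hspa5, which followed the clusters, and Calr, Creld2 and Hsp90b1, which did not.

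**Figure D5:**
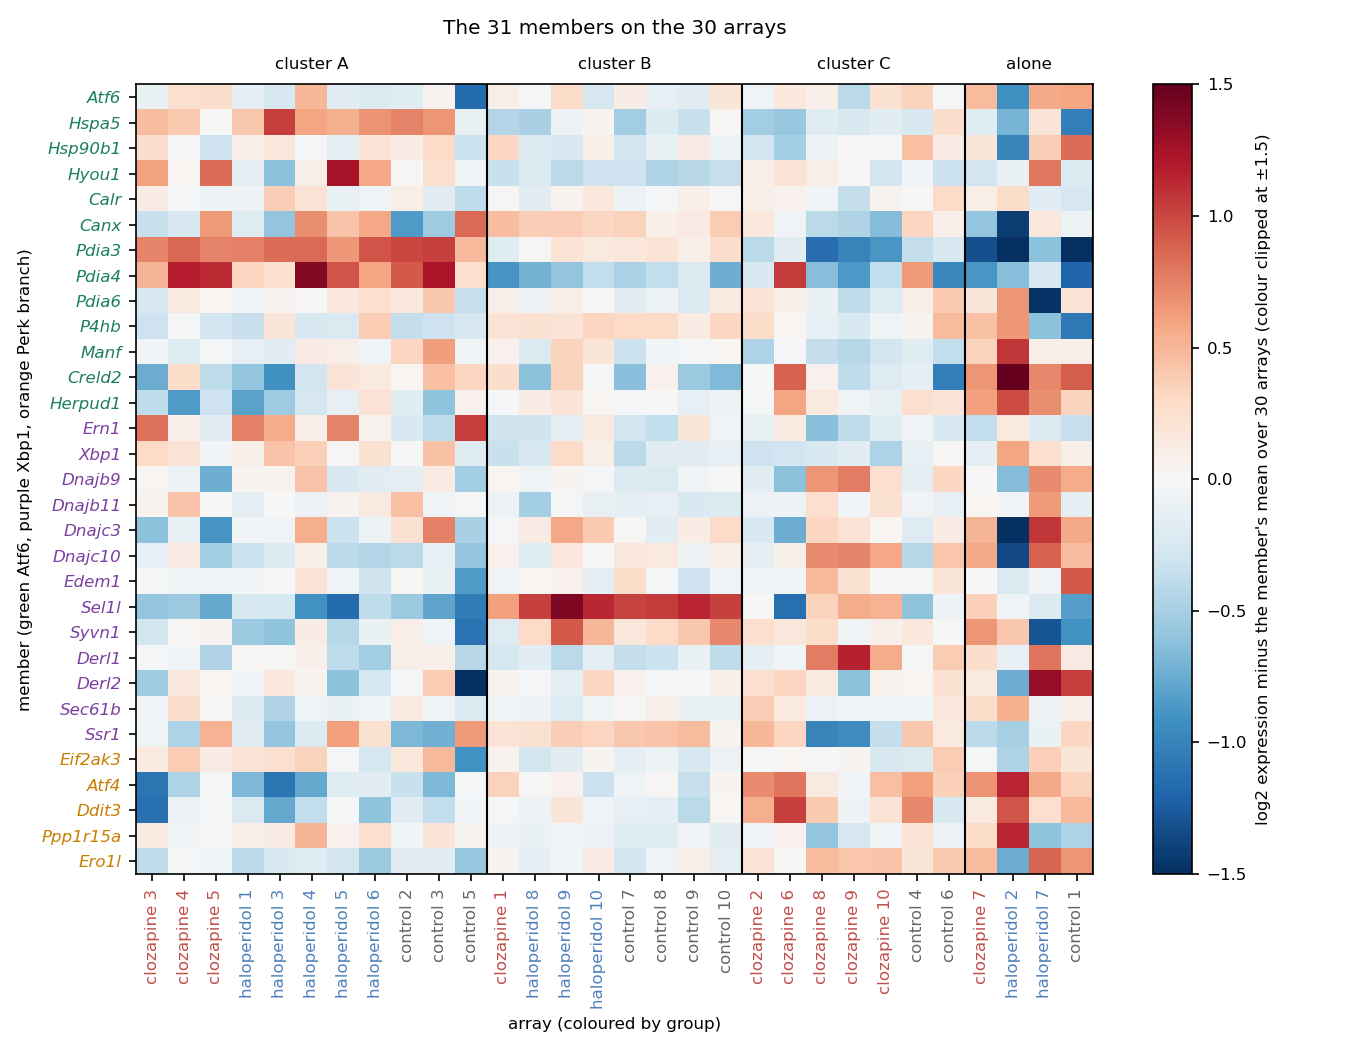
Each tested member (rows, coloured by branch) on each of the 30 arrays (columns, by array cluster and then by group), as the log2 value minus the member's mean over 30 arrays, with colours clipped at 1.5 in either direction. Pdia3, Pdia4 and Hspa5 are high in cluster A and Sel1l in cluster B, while haloperidol 2, at the right, is the highest array for 9 members and the lowest for 6.

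Single arrays also took many of the extreme values. Haloperidol 2 was the highest of 30 arrays for 9 of 31 members and the lowest for 6. It was highest for Atf4, Xbp1, Manf, Creld2, Herpud1, Ppp1r15a, P4hb, Pdia6 and Sec61b, and lowest for Hsp90b1, Canx, Pdia3, Dnajc3, Dnajc10 and Ero1l. Haloperidol 7 was highest for 5 and lowest for 3, control 5 was highest for 3 and lowest for 5, and control 1 was highest for 3 and lowest for 3. No clozapine array was highest or lowest for more than 2 members.

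Within clusters, the other members were set against Hspa5, with 11, 8 and 7 arrays per cluster. Before that, each group's mean over all of its arrays was removed, not its mean inside the cluster. The groups filled the clusters unequally, so differences between groups inside a cluster can remain in the correlations, their p and their signs. The part of such differences was not tested. None of the 90 correlations passed an adjusted p of 0.05 by two-sided permutation, exact for the clusters of 8 and 7 arrays, and 13 had an unadjusted p under 0.05. The smallest adjusted p was 0.128. Spearman's rho also gave 0, and so did Pearson's r without the 2 arrays farthest from the median of Hspa5. Pearson's r was above 0 in all 3 clusters for 12 of 30 members, among them Calr, Hsp90b1, Pdia6 and Xbp1, and below 0 in all 3 for Atf4, Canx, Herpud1 and Ssr1. The remaining 14 had mixed signs.

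Genes of the same processes outside the list gave no call either. Of 29 folding and glycosylation genes, 23 were tested, of 36 degradation and translocation genes 30, and of 30 stress sensing and eIF2 alpha genes 24. At an unadjusted p under 0.05, the folding list had 2 genes with clozapine against control and 0 in the other comparisons, and each of the other 2 lists had 1 in each comparison. Of all probe sets, 4.35% passed with clozapine against control, 2.3% with haloperidol against control and 3.14% between the drugs. The genes below are named by their p, as a description. Stt3a, a catalytic subunit of oligosaccharyltransferase, was lower with clozapine than in controls by -0.32 (p = 0.0443), and Spcs2, a signal peptidase subunit, by -0.23 (p = 0.0245). Spcs3, another signal peptidase subunit, gave -0.38 (p = 0.00982) with haloperidol against control. Map3k5 (ASK1), a kinase downstream of Ern1, gave -0.71 (p = 0.023) with haloperidol against control. Sec62, a translocation protein, was higher with clozapine than with haloperidol by 0.30 (p = 0.0482).

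The other genes with the smallest p of a list and direction had an unadjusted p above 0.05. Against control with clozapine these were Tor1a (0.12), Nploc4 (0.31, p = 0.0695) and Map3k5 (-0.35). With haloperidol they were Selenos (0.27), Rpn1 (-0.19), Nploc4 (0.33, p = 0.0563) and Slc7a5 (0.21). Between the drugs they were Prkcsh (0.37), Selenos (-0.34), Srpr (-0.22) and Mthfd2 (-0.35). Nploc4, a cofactor of the p97 ATPase that pulls proteins out of the ER membrane, lay above the control mean on 9 of 10 arrays with either drug, and these comparisons share the control arrays.

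Nupr1, a small stress-induced chromatin protein that Atf4 is known to induce, was the one gene of these lists with an unadjusted p under 0.05 in 2 comparisons. It ran from 5.54 to 6.16 (median 5.71) on clozapine arrays, from 4.84 to 5.98 (median 5.17) on haloperidol arrays and from 4.93 to 5.90 (median 5.26) on control arrays. All 10 clozapine arrays lay above the means of both other groups, although the ranges overlapped. The differences were 0.43 (SE 0.15, p = 0.00891, adjusted p = 0.9997) from control and 0.42 (SE 0.15, p = 0.0115, adjusted p = 0.965) from haloperidol. Both comparisons use the same 10 clozapine arrays, of which 5 lay in cluster C, where no haloperidol array lay. Values of the second Nupr1 probe set and values inside clusters are not given here.

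Markers of the cell types in forebrain were present in all groups. Summed on the linear scale, the 7 measured neuron markers ran from 20280 to 31610 in clozapine, from 18120 to 31360 in haloperidol and from 19210 to 30560 in control arrays. The 7 microglia markers ran from 1560 to 2190, from 1470 to 2830 and from 1567 to 2228 in the same groups, and the 4 measured choroid plexus markers from 10220 to 20630, from 7727 to 15730 and from 9055 to 17400. The 3 measured red blood cell markers had means under 4 and summed to at most 95.5. No marker was called. At an unadjusted p under 0.05 stood Cx3cr1, a microglial receptor, with clozapine against control (-1.06, p = 0.0122), beside 4.35% of all probe sets. It was 1 of 7 microglia markers tested, of which 3 were higher and 4 lower with clozapine, with a median difference of -0.02. Mobp, a myelin gene, passed with haloperidol against control (-0.29, p = 0.0351), beside 2.3% of all probe sets. It was 1 of 7 oligodendrocyte markers tested, of which 1 was higher and 6 lower with haloperidol, with a median difference of -0.09. The part of cell make-up in the members' differences was not tested.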

How the data were processed

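The deposited values are log2 expression, 1 per array and probe set. Per the submitters' processing notes the authors used GCRMA. Neither its version, nor scan dates, nor the set of arrays it was run on is stated in the labels or file headers. GCRMA squeezes weak signals into a narrow range, which shrinks differences of low genes. Array number limits the precision. Of 22690 probe sets, 64 controls were left out and 12944 of 22626 others, with a mean of at least 4, were tested. Names came from the platform annotation: 20380 probe sets had 1 symbol, 691 several and 1555 none, and only the first kind was named. All 30 arrays entered 1 limma 3.58.1 fit (R 4.3.3, lmFit and eBayes, two-sided, 27 residual degrees of freedom, Benjamini-Hochberg over all probe sets tested). The fit was tested on simulated data. Groups came from sample titles, and mice were separate animals per the series design. Members, lists and the choice of named genes were made with earlier results of these data known. Full values are given for the sensors and first factors, for members with an unadjusted p under 0.05, and for the smallest p of each branch and comparison. In each related list the smallest p in each direction is named. Within-cluster permutation tests used all orders up to 9 arrays and 100000 draws otherwise. No pair of arrays held the same values. Alternatives covered filters, normalization, replicate and cluster blocks, RNA integrity, array weights, left-out arrays, the samples fitted and the probe set rule.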

Additional observations from a re-analysis of the deposited data

Results flagged for a closer look

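Dixon's test flagged 17 of the 93 sets of 10 values (31 members in 3 groups), where the highest or lowest array stood far from the nearest other array for the range of its group. Chance flags about 1 in 20. Haloperidol 2 had 5 of them: Manf (9.73) and Sec61b (9.38) were high, and Hsp90b1 (9.39), Pdia3 (8.25) and Dnajc3 (4.92) were low. Control 5 had 4: Ern1 (6.41) was high, and Atf6 (6.97), Derl2 (4.997) and Eif2ak3 (6.49) were low. Haloperidol 7 had 3, with Derl1 (9.83) and Derl2 (8.10) high and Pdia6 (7.15) low. Clozapine 3 had 2, with Ern1 (6.19) high and Ddit3 (5.999) low. The remaining 3 were Calr (11.66), low in clozapine 9, Pdia3 (8.56), low in control 1, and Dnajb11 (7.78), high in control 2.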

How the results depend on the processing

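For 12 genes in 3 comparisons, 492 values were computed under up to 14 alternatives: 465 kept their direction and side of the threshold, 26 turned in direction, none of those with an unadjusted p under 0.05, and 1 passed the threshold. For clozapine against control, array weights called 1731 of 12944 probe sets and 1 member, Derl1 (0.41). With the cluster block, haloperidol against control had 1 probe set called, no member. Leaving out haloperidol 2, haloperidol 7 or control 1 in turn gave 0 calls in each comparison. The cause of these changes was not tested. Turned with clozapine against control were Atf4 under the cluster block (-0.0029) and Ppp1r15a under the cluster block (-0.0991), RNA integrity (-0.007), without control 1 (-0.033) and without the 3 arrays (-0.033); under the median over probe sets, Derl1 (-0.1224) and Ero1l (-0.222) turned. With haloperidol against control, Atf6 turned under quantile normalization (0.0207), the cluster block (0.1157), RNA integrity (0.0435), without control 1 (0.0478), without haloperidol 2 (0.0734) and without the 3 arrays (0.0768). Ddit3 turned under the cluster block (0.0115), RNA integrity (0.0197) and without control 1 (0.005), and Manf under the cluster block (-0.0537). Derl1 turned without haloperidol 7 (-0.0889), without the 3 arrays (-0.0718) and under the median over probe sets (-0.0734), and Atf4 under that median (0.0118). Between the drugs, Hyou1 turned under quantile normalization (-0.0221), RNA integrity (-0.0031) and without haloperidol 2 (-0.0167), Eif2ak3 without haloperidol 2 (-0.0028) and Derl1 under the median over probe sets (-0.049). Leaving out 1 of these 3 arrays at a time, the turned values ranged as follows: with clozapine against control, Ppp1r15a from -0.033 to 0.0107; with haloperidol against control, Atf6 from -0.0931 to 0.0734, Ddit3 from -0.1651 to 0.005 and Derl1 from -0.0889 to 0.0338; and between the drugs, Eif2ak3 from -0.0028 to 0.0889 and Hyou1 from -0.0167 to 0.0838.

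Whether the replicate numbers pair the mice is not known, and the main fit used no pairing. Of 30 same-numbered pairs of arrays, 17 had a correlation of deviations over 0.1 (range -0.50 to 0.80), and 4 arrays matched best with their own number. Haloperidol and control arrays with the numbers 8, 9 and 10, all in cluster B, correlated at 0.80, 0.72 and 0.75. Those with the numbers 1 and 2 correlated at -0.30 and -0.25. With the replicate number as a block, 0 probe sets and 0 members were called in each comparison, and Xbp1 stayed at -0.36 between the drugs (adjusted p = 0.841). At an unadjusted p under 0.05, probe sets with and without this block numbered 846 and 563 for clozapine against control, 540 and 298 for haloperidol against control, and 642 and 406 between the drugs. Under the other alternatives those counts ran from 285 to 3994, from 164 to 3094 and from 229 to 2467, the highest each time with array weights. Over the alternatives the adjusted p of Xbp1 between the drugs ran from 0.151 to 0.983.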
